A study of Homo sapiens with 16 samples.

Results

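Tropomyosin is made in human cells from 4 genes, TPM1, TPM2, TPM3 and TPM4, and their transcripts were followed in pancreatic progenitors treated with latrunculin B. Every transcript that GENCODE release 44 assigns to these genes was taken: 110 of the 111 annotated were listed in the deposited quantification, out of 165533 transcripts of 35810 genes. On GRCh38, TPM1 (ENSG00000140416.25) lies at chr15:63042620-63071915 and TPM4 (ENSG00000167460.17) at chr19:16067021-16103002 on the plus strand, and TPM2 (ENSG00000198467.16) at chr9:35681992-35690056 and TPM3 (ENSG00000143549.22) at chr1:154155308-154194648 on the minus strand. The cells were progenitors made from the human embryonic stem cell line SA121 carrying an NGN3-GFP reporter, at day 19 of differentiation. All libraries came from this line, and no separate clone or donor is named. Latrunculin B (LatB) at 0.5 µM was given for 3 h (3 libraries), 6 h (3), 12 h (2) or 24 h (3). The controls were harvested at 0 h (3 libraries, tagged DMSO in the labels and described as taken before treatment in the series text) or after 24 h in DMSO (2). No control was taken at 3, 6 or 12 h, so at these times LatB cannot be told apart from time in culture. The series asks what happens between loss of actin filaments and the choice of an endocrine fate. Polyadenylated RNA was sequenced to between 23609727 and 33515398 estimated reads per library.

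Tropomyosins are coiled-coil proteins that lie end to end along actin filaments and set which other proteins, such as myosin and cofilin, can reach the filament. The genes give several proteins through alternative first, internal and last exons, though not every gene has each kind. The long forms begin with exon 1a and are known from stress fibres and muscle. The short forms begin with the internal exon 1b and are known from many non-muscle filaments. TPM2 has exon 1a and no exon 1b in the annotation used. Latrunculin B binds actin monomers and keeps them from joining filaments. In bulk RNA of this kind, fewer cells of a type and less RNA per cell cannot be told apart.

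The first coding exon decides whether a long or a short protein is read, so those on which the isoform results turn are shown, with the start codon in capitals. They were read from the GRCh38 genome at GENCODE coordinates, on the strand of the gene: exon 1a of TPM1 lies at chr15:63042830-63042943 (plus strand), exon 1b of TPM1 at chr15:63048576-63048707 (plus), exon 1b of TPM3 at chr1:154182988-154183119 (minus) and exon 1b of TPM4 at chr19:16076566-16076697 (plus).
TPM1 exon 1a: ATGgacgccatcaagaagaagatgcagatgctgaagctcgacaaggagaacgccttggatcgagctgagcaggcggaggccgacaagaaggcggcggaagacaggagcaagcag
TPM1 exon 1b: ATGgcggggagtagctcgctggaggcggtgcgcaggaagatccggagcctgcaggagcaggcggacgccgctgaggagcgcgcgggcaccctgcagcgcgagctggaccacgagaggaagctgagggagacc
TPM3 exon 1b: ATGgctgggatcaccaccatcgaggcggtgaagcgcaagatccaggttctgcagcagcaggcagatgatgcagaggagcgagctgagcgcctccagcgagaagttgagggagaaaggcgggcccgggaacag
TPM4 exon 1b: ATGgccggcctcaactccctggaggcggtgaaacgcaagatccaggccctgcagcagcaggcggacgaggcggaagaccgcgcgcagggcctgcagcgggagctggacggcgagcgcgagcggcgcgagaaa
Exon 1b of TPM1 matched that of TPM4 at 95 of 132 bases (72.0%) and that of TPM3 at 83 of 132 bases (62.9%), and the TPM3 and TPM4 exons matched each other at 93 bases (70.5%). Exon 1a is closer between genes: those of TPM1 and TPM2 matched at 98 of 114 bases (86.0%).

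The window from 250 to 51 bases before the start site was also examined for 4 starts, namely the internal starts of TPM1, TPM3 and TPM4 and the start of TPM2. That of TPM4 is shown because it holds a run, in capitals, that differs by 1 letter from a CArG box, the element bound by serum response factor. It was read from the RefSeq promoter table (GRCh38.p14) at chr19:16076245-16076444 on the plus strand.
TPM4 internal start: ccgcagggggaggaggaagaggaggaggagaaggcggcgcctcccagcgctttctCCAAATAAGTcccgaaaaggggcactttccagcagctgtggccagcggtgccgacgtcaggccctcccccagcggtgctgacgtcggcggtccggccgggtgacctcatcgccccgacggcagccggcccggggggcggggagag
The run begins 195 bases before the TPM4 start. A CArG box with 1 letter changed, a search chosen after the sequences were seen, was present on either strand in 12.9% of 34943 promoter windows of the same length. An exact CArG box was in 0.864% of those windows and GGAATG or its complement CATTCC, the motif known for TEAD factors, in 9.71%, and none of the 4 tropomyosin windows held either, which says only that these letters are not in these windows. Their GC content was 68% to 77.5%, against a median of 57.5% over all windows. The distal start of TPM1, from which its exon 1a transcripts begin, was not examined.

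Levels are given in TPM, a unit of transcript abundance per library that is scaled to transcript length, so that genes can be compared. By mean level over the 16 libraries TPM3 ranked 250th, TPM4 272nd, TPM1 338th and TPM2 1314th of all genes. In the control 0 h libraries the 4 genes together made 1648 ± 36.0 TPM (SD, n = 3), of which TPM4 was 32.1%, TPM1 31.1%, TPM3 27.8% and TPM2 9.02%. The means of TPM4 (529 ± 9.65 TPM) and TPM1 (513 ± 55.2 TPM) were closer than the spread of the TPM1 libraries. TPM3 followed at 458 ± 23 TPM and TPM2 at 149 ± 1.51 TPM. After 24 h of LatB the order over all transcripts had become TPM3 (535 ± 23.5 TPM), TPM4 (386 ± 53.3 TPM), TPM1 (253 ± 36.6 TPM) and TPM2 (66.0 ± 4.99 TPM). This order depended on the transcripts counted. Those encoding a long or short protein (sorted below) averaged 461 (TPM4), 412 (TPM1), 181 (TPM3) and 132 TPM (TPM2) in control 0 h. At 24 h of LatB they averaged 339 (TPM4), 213 (TPM3), 200 (TPM1) and 58.4 TPM (TPM2). TPM4 thus stayed first among them, and the TPM3 and TPM1 libraries overlapped at 24 h.

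TPM1, the source of most long transcripts, fell the most of the 4 genes. Its level was 449, 539 and 550 TPM in the control 0 h libraries and 671 and 684 TPM in the control 24 h libraries. With LatB it was 337, 381 and 266 TPM at 3 h, 237, 206 and 203 TPM at 6 h, 187 and 245 TPM at 12 h, and 274, 211 and 274 TPM at 24 h. All 11 LatB libraries lay below all 5 control libraries. The log2 fold change was −0.61 ± 0.14 (SE) at 3 h against control 0 h (adjusted p = 0.00416, edgeR quasi-likelihood test, Benjamini-Hochberg over 16705 genes), −1.25 ± 0.14 at 6 h (adjusted p = 1.25e-05), −1.38 ± 0.16 at 12 h (adjusted p = 3.03e-05) and −1.51 ± 0.15 at 24 h against control 24 h (adjusted p = 9.86e-06), the last a 2.84-fold lower level.

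TPM2, whose product is a long tropomyosin of smooth and skeletal muscle and of fibroblasts, also fell at every time. It stood at 149, 147 and 150 TPM in control 0 h and 146 and 138 TPM in control 24 h. The LatB libraries gave 104, 103 and 101 TPM at 3 h, 91.5, 89.0 and 81.5 TPM at 6 h, 70.7 and 111 TPM at 12 h, and 71.7, 63.7 and 62.6 TPM at 24 h. No LatB library reached the lowest control. The log2 fold change went from −0.40 ± 0.086 at 3 h (adjusted p = 0.00288) to −0.64 ± 0.087 at 6 h (adjusted p = 6.31e-05), −0.67 ± 0.099 at 12 h (adjusted p = 0.000183) and −1.05 ± 0.096 at 24 h (adjusted p = 4.69e-06).

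TPM4, whose TPM lay mostly in short transcripts, fell from 6 h on. Its level was 527, 521 and 540 TPM in control 0 h and 571 and 620 TPM in control 24 h. After LatB it was 435, 500 and 388 TPM at 3 h, 375, 346 and 351 TPM at 6 h, 283 and 290 TPM at 12 h, and 416, 325 and 419 TPM at 24 h. The lowest values were those at 12 h, and the LatB libraries lay below the control libraries at each time. The change at 3 h did not pass the test (−0.20 ± 0.095, adjusted p = 0.128), while those at 6 h (−0.49 ± 0.095, adjusted p = 0.00107), 12 h (−0.91 ± 0.11, adjusted p = 3.72e-05) and 24 h (−0.63 ± 0.11, adjusted p = 0.000415) did. Without LatB 3 h replicate 2, the highest of its group, the 3 h change was −0.31 and passed (adjusted p = 0.0312).

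TPM3, the other main source of short transcripts, moved the opposite way and by little. Its TPM overlapped that of control 0 h at 3 h and 12 h. At 6 h it lay above control 0 h, and at 24 h above control 24 h. The values were 484, 450 and 440 in control 0 h, 404 and 439 in control 24 h, 449, 492 and 493 at 3 h, 510, 498 and 514 at 6 h, 445 and 488 at 12 h, and 531, 513 and 560 at 24 h. In CPM (reads scaled to library size), adjusted by the trimmed mean of M values (TMM), on which the test runs, it averaged 335 ± 4.15 in control 0 h and 386 ± 22.1, 422 ± 6.69 and 384 ± 8.99 at 3, 6 and 12 h, and 325 ± 9.59 in control 24 h against 396 ± 15.1 at 24 h, with no overlap. The log2 fold changes were +0.21 ± 0.046 (adjusted p = 0.00387), +0.33 ± 0.046 (adjusted p = 6.79e-05), +0.20 ± 0.051 (adjusted p = 0.00812) and +0.28 ± 0.052 (adjusted p = 0.000755). The rise at 24 h passed under every alternative tried. Those at 3, 6 and 12 h did not pass with limma on log2(TPM + 1), which gave 0.06 (adjusted p = 0.487), 0.15 (adjusted p = 0.0647) and 0.03 (adjusted p = 0.795).

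**Figure D1:**
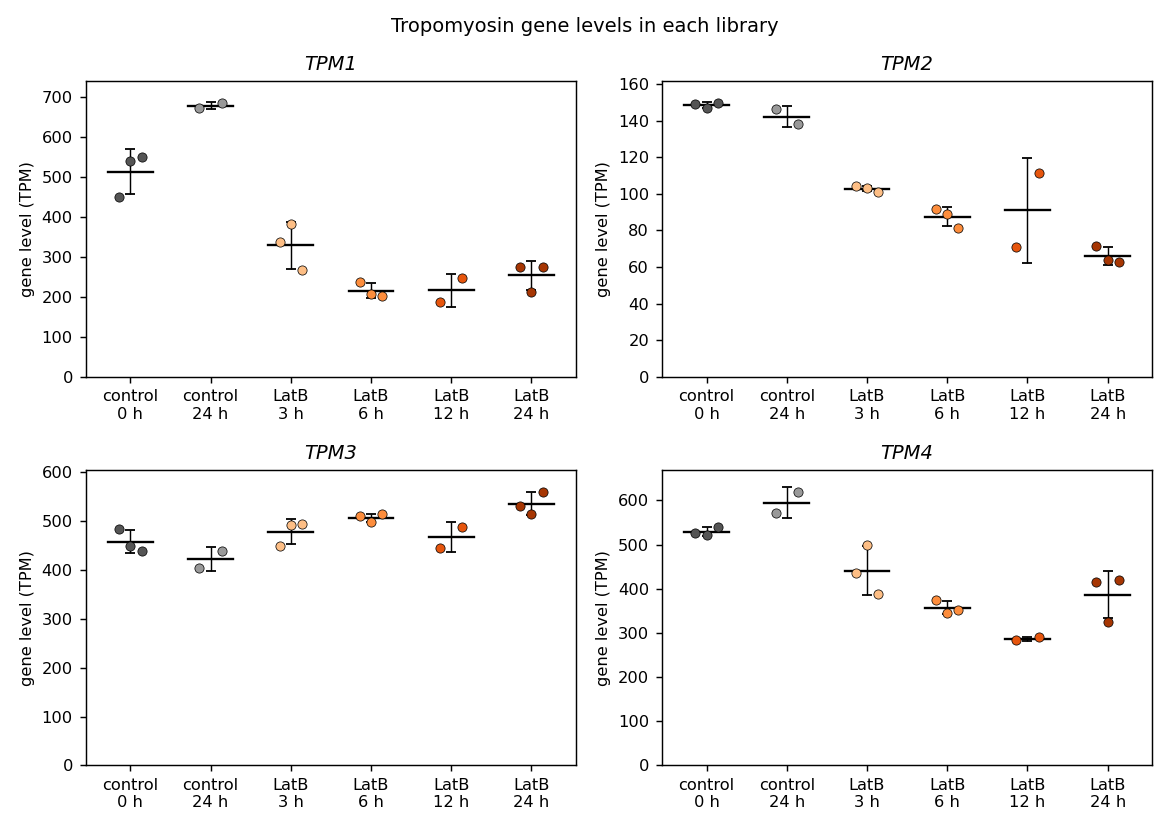
Level of each tropomyosin gene in TPM (vertical axes, from 0) in the 16 libraries by group. Points are libraries, horizontal bars group means and whiskers 1 SD. TPM1 fell from 513 TPM on average in control 0 h to 215 TPM at 6 h, whereas TPM3 stayed between 404 and 560 TPM.

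Over the 4 genes, 2 were called lower and 1 higher at 3 h, where 31.6% of all genes tested were called. At 6, 12 and 24 h the counts were 3 lower and 1 higher, against 43.3%, 35.8% and 40.7% of all genes. Between the controls none of the 4 was called (0.251% of all genes were): TPM1 was 1.31-fold higher after 24 h in DMSO (log2 +0.39 ± 0.15, adjusted p = 0.455), with both control 24 h libraries above the 3 at 0 h. TPM2, TPM3 and TPM4 differed between the controls by −0.05, −0.04 and +0.15 on the log2 scale.

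**Figure D2:**
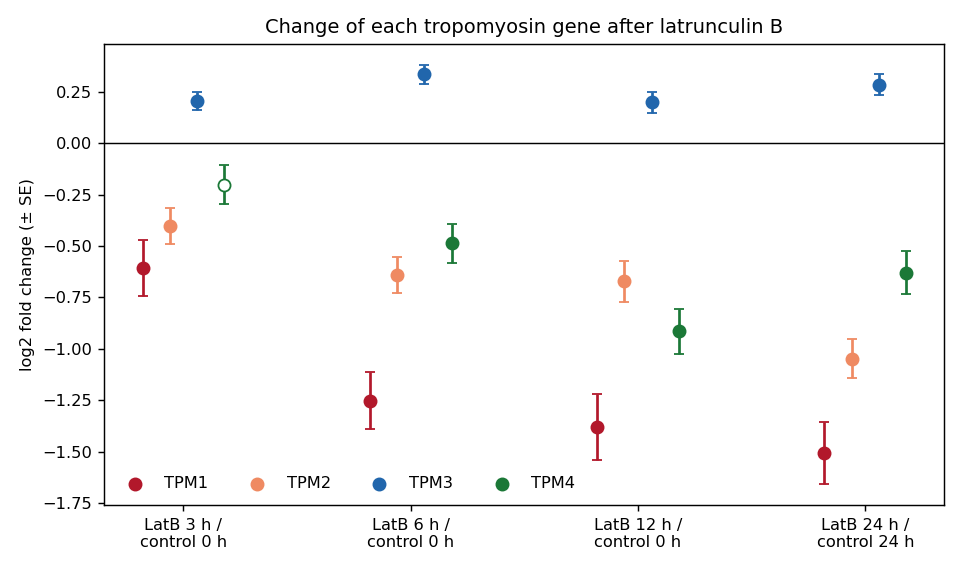
Log2 fold change of each gene (vertical axis, ± SE) at each LatB time against its control. Filled points passed the test at adjusted p under 0.05 and the open point (TPM4 at 3 h, −0.20) did not. TPM1 lies lowest at every time and only TPM3 lies above 0.

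Successive LatB times were also compared directly. From 3 h to 6 h, TPM1 (−0.64 ± 0.14, adjusted p = 0.00505) and TPM4 (−0.28 ± 0.095, adjusted p = 0.0472) fell, beside 22.2% of all genes called. The TPM4 call was lost without LatB 3 h replicate 1 or 2 or any LatB 6 h replicate (−0.31 to −0.19, adjusted p = 0.0819 to 0.192). From 6 h to 12 h only TPM4 of the 4 was called (−0.43 ± 0.11, adjusted p = 0.00979), where 29% of all genes were. From 12 h to 24 h, with 11.7% called, TPM4 rose again (+0.44 ± 0.11, adjusted p = 0.0209) and TPM2 fell (−0.43 ± 0.097, adjusted p = 0.0144). Each of these 12 h to 24 h calls was lost without LatB 12 h replicate 2, which left +0.37 for TPM4 (adjusted p = 0.112) and −0.18 for TPM2 (adjusted p = 0.141), and without LatB 24 h replicate 3 (+0.37, adjusted p = 0.0802, and −0.42, adjusted p = 0.0512). Without LatB 12 h replicate 2 the TPM4 fall from 6 h to 12 h was −0.36 (adjusted p = 0.0883), and that of TPM2 was −0.29 and called (adjusted p = 0.0149).

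The effect at 24 h, taken against its own control, was lower than the effect at 3 h for TPM1 (difference −0.90 ± 0.20 on the log2 scale, adjusted p = 0.00549), TPM2 (−0.64 ± 0.13, adjusted p = 0.00256) and TPM4 (−0.43 ± 0.14, adjusted p = 0.0379), and 27.9% of all genes passed this test. For TPM4 it did not pass in 14 of 20 alternatives, which include leaving out any 1 control library, LatB 3 h replicate 1 or 2 or LatB 24 h replicate 2 (−0.48 to −0.32, adjusted p = 0.0622 to 0.132). For TPM3 the difference was +0.08 ± 0.069 (adjusted p = 0.432), and it passed with limma on log2(TPM + 1), at +0.28 (adjusted p = 0.0394).

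LatB 12 h replicate 2 stood apart. Its correlation with replicate 1 was 0.967 (log2 CPM over all genes), against 0.980 to 0.986 for the other pairs of replicates. The 9 mesenchymal markers summed to 1602 CPM in it, 435 CPM in replicate 1 and 335 to 609 CPM in the other 14 libraries, with COL3A1, a fibrillar collagen, at up to 684 CPM. TPM2 and TPM1 were also higher in it than in replicate 1 (111 against 70.7 TPM and 245 against 187 TPM). The part of these markers in the 12 h values was not tested. Without this library the 12 h changes were −1.52 for TPM1, −0.92 for TPM2, +0.18 for TPM3 and −0.85 for TPM4, each past the threshold in a fit that takes the spread of the 1 library left from the other groups.

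The pancreatic progenitor label was checked against its markers: the 10 genes summed to 2094 to 3682 CPM, with PTF1A at 0.07 to 0.73 CPM and so near 0. The sum of the 5 epithelial markers was 6825 to 7131 CPM in control 0 h, 4008 to 4497 CPM at 12 h and 4678 to 5048 CPM at 24 h. The markers did not move as one: the keratins KRT8 and KRT18 fell at all 4 times (−1.46 and −1.88 at 12 h), whereas KRT19 rose at 6, 12 and 24 h (+0.47, +0.48 and +0.26), and at 6 h 3 of the 5 were called higher and 2 lower. The 6 endocrine markers summed to 36.9 to 45.2 CPM in control 0 h and 69.7 and 82.5 CPM in control 24 h, against 72.2, 252 and 228 CPM at 24 h of LatB, where NEUROG3, the factor that starts the endocrine program, rose by +4.34 (adjusted p = 7.66e-06). Of the muscle markers, whose cells are rich in TPM1 and TPM2, MYOD1 and DES reached at most 0.041 and 0.14 CPM. The 7 muscle markers summed to 297 to 305 CPM at 3 h and 284 to 299 CPM at 6 h, against 127 to 173 CPM in control 0 h, through MYOCD, a cofactor of serum response factor (+1.10 and +1.26), and SMTN, smoothelin (+1.05 and +0.48). Of the 5 tested, 2 were called higher and 1 lower at 3 h, 2 and 2 at 6 h, and none higher and 2 lower at 12 and at 24 h, with medians of −0.67, −0.66, +0.18 and −0.60. The part of these groups in the tropomyosin values was not tested.

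Transcripts were then sorted by the protein they encode: long (270 residues or more), short (at least 230 but fewer than 270 residues) and other (shorter or no protein). Of the 110, 18 were long, 19 short and 73 other. In 23 the level was 0 in every library, in 48 it was 0 in some, and 48 had a mean of at least 1 TPM. TPM1 had 10 long and 7 short transcripts, TPM2 4 long and no short, TPM3 3 long and 6 short, and TPM4 1 long and 6 short. One of the long TPM1 transcripts, TPM1-225 (1.04% to 5.11% of the gene), starts near exon 1b and is long by its residues only. Over the 4 genes, long transcripts held 40.8%, 44.3% and 44.2% of the long and short TPM in control 0 h and 46.6% and 46.0% in control 24 h. That share was 37.8%, 37.4% and 34.6% at 3 h, 29.8%, 31.0% and 29.2% at 6 h, 25.9% and 34% at 12 h, and 27.0%, 24.6% and 26% at 24 h. Every LatB library lay below every control library. The long sum went from 511 ± 38.4 TPM in control 0 h to 243 ± 5.01 TPM at 6 h, and from 629 ± 27.7 TPM in control 24 h to 210 ± 33.0 TPM at 24 h, while the short sum went from 674 ± 17.8 to 567 ± 17.7 TPM and from 730 ± 43.5 to 600 ± 61.1 TPM.

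**Figure D3:**
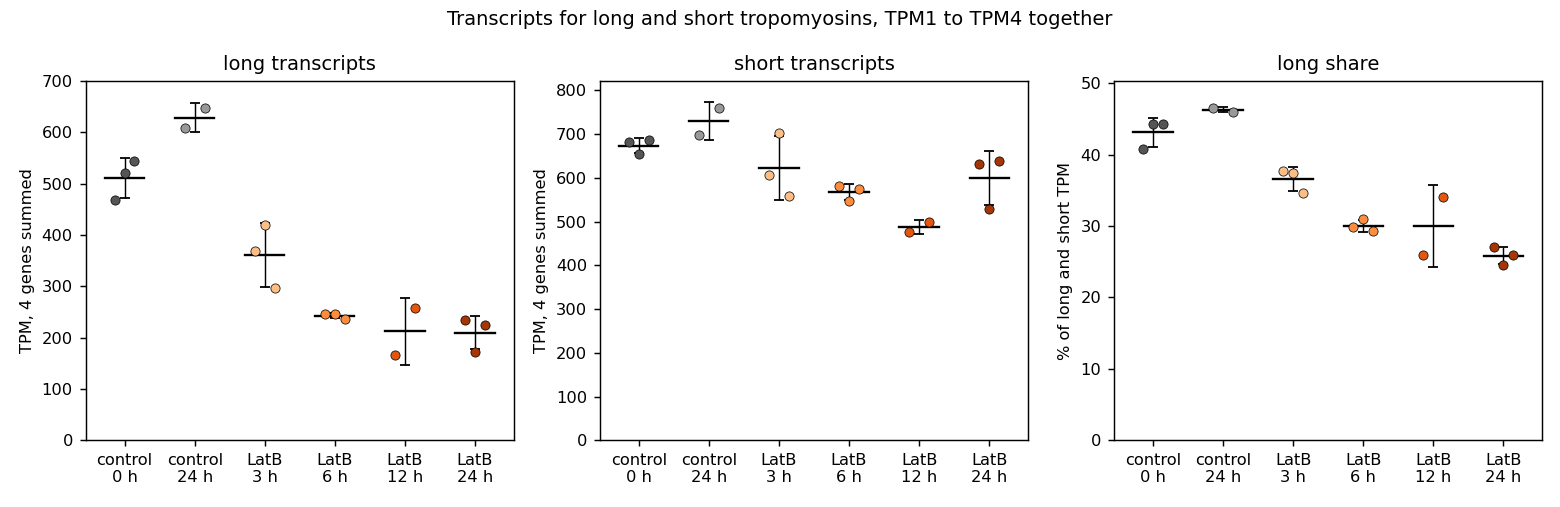
Summed TPM of the long transcripts (left) and of the short transcripts (middle) of the 4 genes, and the long share of both in percent (right), by group. Points are libraries, horizontal bars means and whiskers 1 SD. The long share was 43.1% on average in control 0 h and 25.9% after 24 h of LatB.

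When the reads of each class were put through the same gene-level fit, the long transcripts of TPM1 fell by 1.19 on the log2 scale at 6 h (adjusted p = 9.1e-05), by 1.58 at 12 h (adjusted p = 5.5e-05) and by 1.70 at 24 h (adjusted p = 1.8e-05), and the 3 h value was −0.41 (adjusted p = 0.0763). The long transcripts of TPM2 fell at all 4 times, by 0.33, 0.55, 0.59 and 1.02. The short transcripts of TPM4 fell by 0.45, 0.96 and 0.61 at 6, 12 and 24 h, with −0.18 at 3 h (adjusted p = 0.260). Those of TPM3 rose at each time, by +0.24, +0.40, +0.28 and +0.31. The other transcripts fell at all 4 times in TPM1 (−2.00, −2.06, −1.11 and −1.40), TPM2 (−1.36, −1.88, −1.82 and −1.26) and TPM4 (−0.38, −0.71, −0.64 and −0.76), by more than the long transcripts of TPM1 and TPM2 at 3 and 6 h, a difference that was not tested. In TPM3 they rose at 3, 6 and 24 h (+0.20, +0.24 and +0.29). The difference between the 24 h and the 3 h effect passed for long TPM1 (−1.28 ± 0.25, adjusted p = 0.00212) and long TPM2 (−0.69 ± 0.13, adjusted p = 0.00206), and not for the short transcripts of TPM1 (+0.20), TPM3 (+0.07) or TPM4 (−0.44, adjusted p = 0.0666).

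The short transcripts of TPM1 had, per length, group means of 38.5 to 42.4 TPM up to 12 h and in both controls and 48.2 ± 2.61 TPM at 24 h, and their share of the gene went from 8.34 ± 1.18% in control 0 h to 18.0 ± 1.90% at 6 h and from 5.78% in control 24 h to 19.2 ± 2.01% at 24 h. In reads, however, they fell at 3, 6 and 12 h (log2 −0.47, −0.51 and −0.53) and gave −0.28 at 24 h (adjusted p = 0.0774). Of the 2 main ones, TPM1-208 (943 bases) went from 278 ± 89.2 reads in control 0 h to 457 ± 32.5 at 6 h and TPM1-216 (1968 bases) from 636 ± 250.04 to 165 ± 21.7. Transcripts annotated as retained introns were 16.2 ± 4.61% of TPM1 in control 0 h and 18.4 ± 4.24% in control 24 h, against group means of 7.25% to 9.57% with LatB. In TPM2 they were 6.51% and 6.63% in the controls, 1.72% to 2.64% at 3 to 12 h and 6.30 ± 2.45% at 24 h.

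By name, 14 transcripts made at least 5% of their gene in some group. TPM1-206, a long transcript (284 residues, exons 1a, 2b, 3, 4, 5, 6a, 7, 8 and 9d), was the main one of TPM1 in every library. It gave 297, 327 and 352 TPM in control 0 h and 407 and 468 TPM in control 24 h. With LatB it gave 241, 285 and 182 TPM at 3 h, 141, 125 and 128 TPM at 6 h, 86.7 and 132 TPM at 12 h, and 154, 105 and 150 TPM at 24 h. All LatB libraries lay below the controls. Its share of the gene was 63.7% in control 0 h and 71.7%, 61.2%, 50.1% and 53.5% at 3, 6, 12 and 24 h, and no change of share passed the test.

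TPM1-208, the short transcript that joins exon 1b to exons 3, 4, 5, 6a, 7, 8 and 9d (248 residues), took a larger share of TPM1 after LatB. It held 6.26%, 2.21% and 4.33% of the gene in control 0 h and 1.14% and 2.88% in control 24 h. At 3 h the share was 8.51%, 8.88% and 11.2%, at 6 h 13.7%, 14% and 17.4%, at 12 h 14.9% and 14.4%, and at 24 h 14.2%, 18.1% and 14.5%. Each LatB library was above each control library. The difference was +10.8 ± 1.66 percentage points at 6 h (adjusted p = 0.0186, limma on shares over 48077 transcripts) and +13.6 ± 1.86 at 24 h (adjusted p = 0.0161), and did not pass at 3 h (+5.27, adjusted p = 0.248) or 12 h (+10.4, adjusted p = 0.0561). It was the only call among the 18 tropomyosin transcripts tested at 6 and 24 h, where 0.655% and 0.356% of all transcripts were called. None was called at 3 h (0.285%), at 12 h (0.166%) or between the controls (0.027%). The 6 h call was lost with edgeR's exon usage test (adjusted p = 0.0764) and without control 0 h replicate 2 or 3 or LatB 6 h replicate 3 (adjusted p = 0.0608 to 0.0699), and the 24 h call without control 24 h replicate 1 (adjusted p = 0.162). Both were lost in a fit of only the compared groups (adjusted p = 0.211 and 0.209), and in all 7 of 15 alternatives ended the 6 h call and 3 of 14 the 24 h call.

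TPM1-214, which also begins with exon 1b and is annotated for nonsense-mediated decay, was at 0% to 4.03% of the gene in the 5 control libraries. It was at 0% to 4.11% at 3 h and 0% to 5.87% at 6 h (0 to 308 estimated reads). At 12 h it was at 16.4% and 8.66%, and at 24 h at 7.70%, 12.2% and 10.8%. Its differences at 12 h (+10.9 points, adjusted p = 0.1002) and 24 h (+10.2 points, adjusted p = 0.0963) did not pass. In TPM2 the main transcript TPM2-202 (exons 6a and 9d) held 63.1% to 73.9% in every library, with TPM2-201 (exons 6b and 9d) at 12.4% to 24.8%. TPM4-218, short, held 81.4% to 90.2% of TPM4. In TPM3 the short TPM3-206 held 34.4% to 43.2%, and transcripts annotated for nonsense-mediated decay made 49.97% to 52.6% by group. One of these, TPM3-220, is only 543 bases long, so few reads carry a large TPM.

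**Figure D4:**
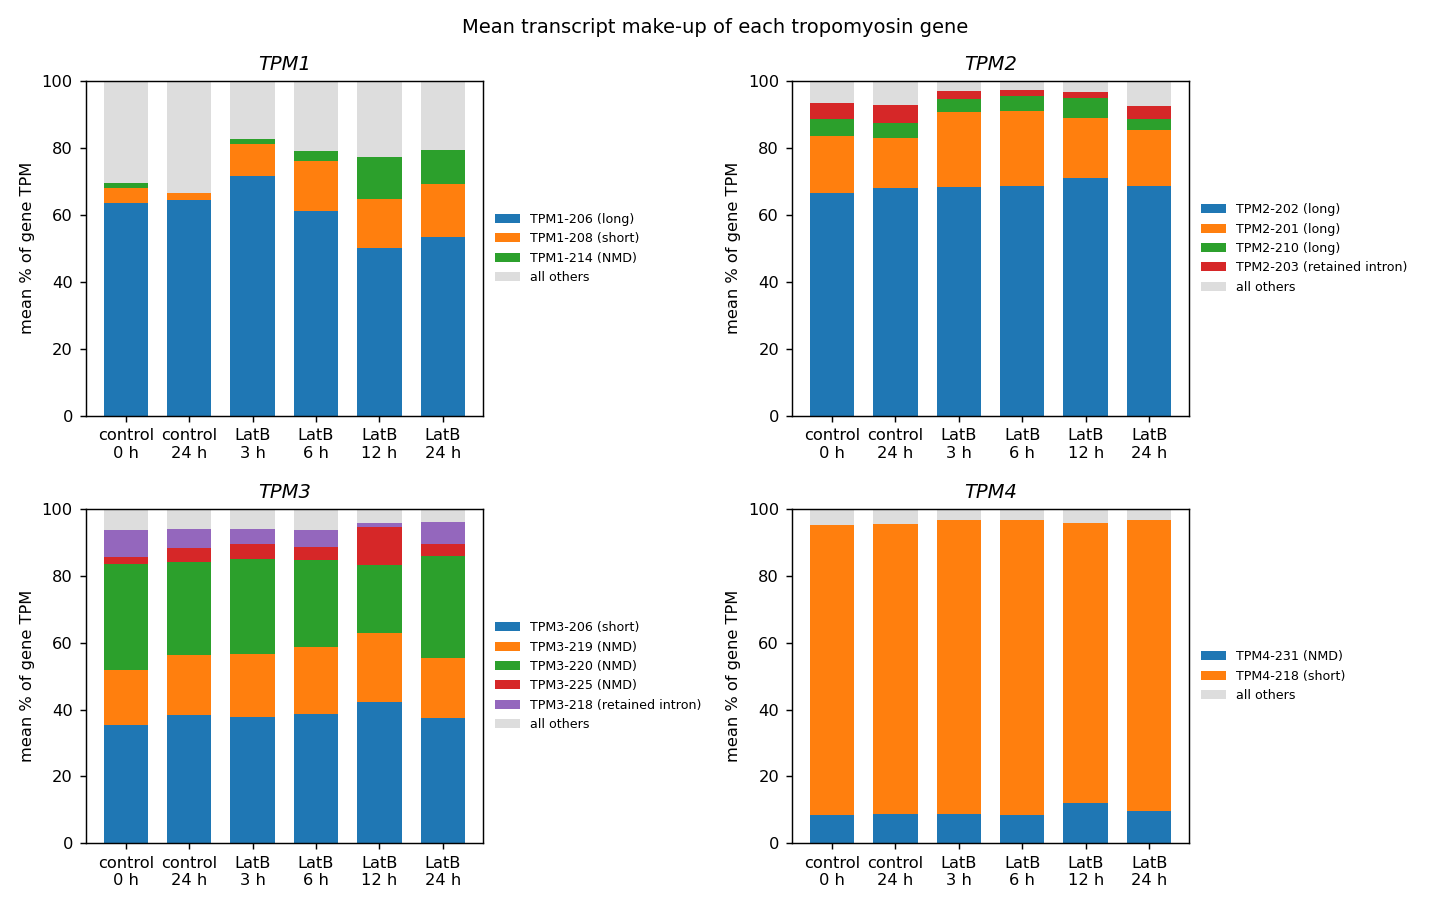
Mean share of each gene's TPM (vertical axes, percent) held by the transcripts that reached 5% in some group, stacked by group, with the rest in grey (NMD, annotated for nonsense-mediated decay). In TPM1 the orange share of TPM1-208 goes from 4.26% in control 0 h and 2.01% in control 24 h to 15.6% at 24 h, and the make-up of TPM4 stays close to constant.

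Joining all transcripts that share a coding exon put together those that differ only outside the coding sequence. The shares are of the TPM of the whole gene, so transcripts annotated as retained introns still count in them. Transcripts with exon 1b held 16.3%, 12.5% and 12.4% of TPM1 in control 0 h and 10.9% and 8.90% in control 24 h. With LatB they held 13.8%, 12.2% and 19.2% at 3 h, 23.8%, 23.2% and 21.2% at 6 h, 37.7% and 29.3% at 12 h, and 27.4%, 36.1% and 32.2% at 24 h. The libraries at 3 h overlapped the controls and those from 6 h on did not. The difference was +1.31 points at 3 h (adjusted p = 0.919), +8.99 at 6 h (adjusted p = 0.169), +19.8 ± 3.09 at 12 h (adjusted p = 0.0414, limma over 55778 exons) and +22.0 ± 3.09 at 24 h (adjusted p = 0.0116). TPM1-214 is among these transcripts. Its own share changed by +10.9 points at 12 h and +10.2 points at 24 h, and neither change passed. At 12 h 1 of 44 tropomyosin exons was called, against 0.104% of all exons, and at 24 h 1 of 44, against 0.524%. The 12 h call was lost without control 0 h replicate 2 or 3 (adjusted p = 0.120 and 0.125) or LatB 12 h replicate 1 (+15.6 points, adjusted p = 0.137), and the 24 h call without either control 24 h replicate (adjusted p = 0.0985 and 0.0565). Both were lost in a fit of only the compared groups (adjusted p = 0.328 and 0.223).

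In level, transcripts of TPM1 with exon 1a were lower in all LatB libraries than in the controls, and those with exon 1b only at 3 and 6 h. Transcripts with exon 1a had 320 to 384 TPM in control 0 h, 139 to 156 TPM at 6 h, and 95.9 and 147 TPM at 12 h, and were 112 to 169 TPM at 24 h against 444 and 511 TPM in control 24 h. Those with exon 1b were 67.1 to 73.2 TPM in control 0 h, 46.4 to 50.96 TPM at 3 h, 43.0 to 56.3 TPM at 6 h, 70.4 and 72.0 TPM at 12 h and 75.0 to 88.3 TPM at 24 h, against 73.0 and 60.9 TPM in control 24 h. At 12 h they lay within the control range and at 24 h above it. These sums include TPM1-214, which is annotated for nonsense-mediated decay. It held 0 to 18.1 TPM in control 0 h and 0 TPM in control 24 h, against 21.1 to 30.6 TPM at 12 and 24 h. The level of exon 1b transcripts without TPM1-214 was not tested. Of the transcripts with either first exon, exon 1b held 16.5 ± 1.83% in control 0 h, 12.4 ± 2.48% in control 24 h, 16.2 ± 3.91% at 3 h, 25.1 ± 1.75% at 6 h, 37.6 ± 6.65% at 12 h and 35.5 ± 4.80% at 24 h. The antisense gene TPM1-AS (chr15:63046034-63049387, minus strand) overlaps the start of exon 1b transcripts, covering 237 bases (25.1%) of TPM1-208 and 208 bases (14.9%) of TPM1-214 and none of TPM1-206. Neither of its 2 transcripts was among those quantified, and the library kit is not stated to keep strand, so reads of the antisense gene cannot be told apart there.

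**Figure D5:**
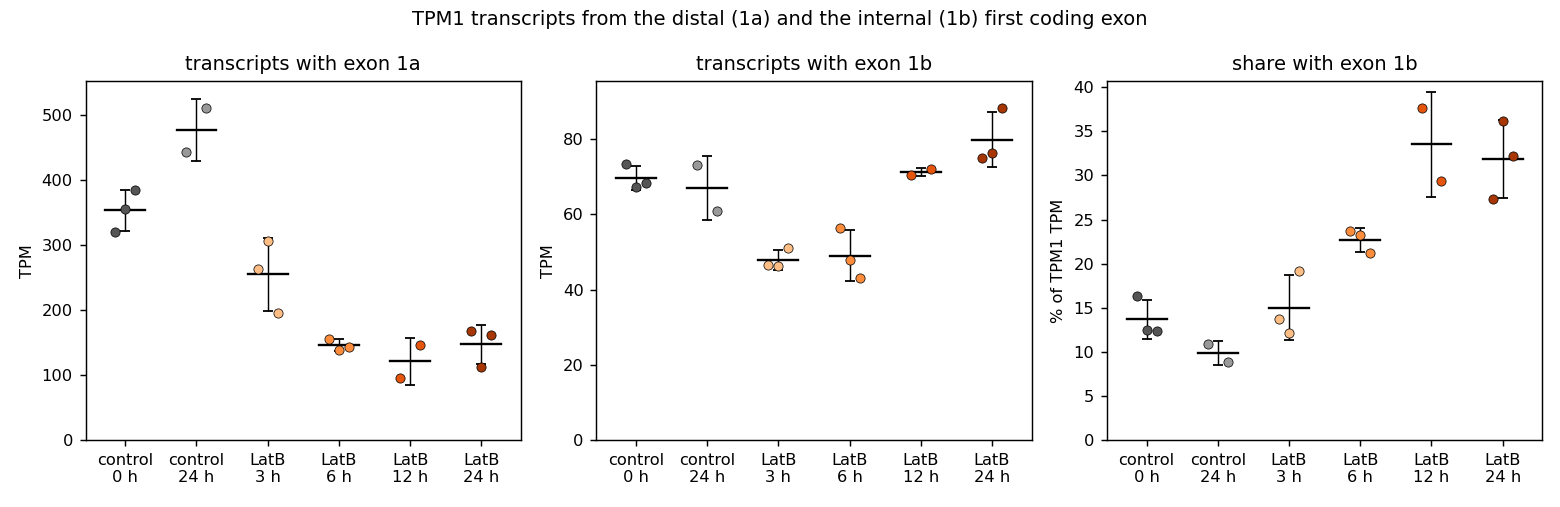
TPM of TPM1 transcripts with exon 1a (left) and exon 1b (middle), and the share of TPM1 with exon 1b in percent (right), by group, all axes from 0. Points are libraries, horizontal bars means and whiskers 1 SD. Exon 1a falls and stays low, while the exon 1b sum stands at 71.2 TPM at 12 h, near its control 0 h mean of 69.6 TPM. This sum includes TPM1-214, annotated for nonsense-mediated decay, at 0 to 18.1 TPM in control 0 h and 21.1 to 30.6 TPM at 12 and 24 h.

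The use of the other alternative exons is given as group means. In TPM1, exon 2b made 93.4% to 94.9% of the transcripts with exon 2a or 2b, exon 6b 7.82% to 11.3% of those with 6a or 6b, and exon 9d 94.5% to 96.4% of those with 9a or 9d. In TPM2, exon 6b made 19.5% to 24.6% of its pair. In TPM3, exon 6b made 75.8% to 86.8% of its pair, lowest at 12 h. There exon 1b made 93.8% to 96.3% of its pair except at 12 h, where it was 92.6% and 84.1%, the lower in LatB 12 h replicate 2. At 6 h the shares of TPM2 with exon 4 (+6.84 ± 1.20 points, adjusted p = 0.0276) and exon 8 (+6.41 ± 1.22 points, adjusted p = 0.0385) were called, 2 of 44 exons against 0.66% of all. Both are in all 3 coding TPM2 transcripts named here. The retained-intron share of TPM2 was lower in the same libraries (2.48 ± 0.24% against 6.51 ± 0.20%). Exon 4 lost its call when only coding transcripts were counted (+2.58 points, adjusted p = 0.329), and both lost it when any 1 of most libraries of the comparison was left out (adjusted p = 0.0557 to 0.121). No tropomyosin exon was called at 3 h (0.169% of all) or between the controls (0.0179%).

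Copies of these genes in the genome drew few reads: 13 annotated tropomyosin pseudogenes summed to 7.36 to 14.1 TPM per library, with TPM3P9 highest (5.10 to 8.64 TPM), against at least 404 TPM for TPM3 and 283 TPM for TPM4.

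Proteins that share the filament with tropomyosin were taken as a list of 24, of which 22 passed the filter on low counts. At 3 h 10 were called lower and 1 higher, at 6 h 10 and 1, at 12 h 14 and 1, and at 24 h 12 and 1, beside 31.6%, 43.3%, 35.8% and 40.7% of all genes called in either direction. The list's median log2 fold change was −0.22, −0.25, −0.53 and −0.28, beside medians of all genes between −0.01 and 0.01. Among those of a mean log2 CPM of at least 3, the largest changes that passed were those of CNN1, calponin of smooth muscle (−3.42 ± 0.45 at 12 h, adjusted p = 7.8e-05), MYL9, a regulatory light chain of non-muscle and smooth muscle myosin (−2.30 ± 0.18 at 24 h, adjusted p = 1.29e-06), CALD1, caldesmon, which binds actin and tropomyosin (−1.46 ± 0.15 at 12 h, adjusted p = 1.24e-05), and ACTN4, the crosslinker alpha-actinin 4 (−1.28 ± 0.10 at 12 h, adjusted p = 1.21e-06). LMOD1, leiomodin 1 of smooth muscle, at 0.614 to 6.42 CPM and named after its values were seen, fell by 2.63 at 6 h (adjusted p = 0.00075) and by 2.34 at 24 h (adjusted p = 0.00211). Troponins, which act with tropomyosin in striated muscle, reached at most 8.69 CPM: of 8, 5 were tested, with 1 higher at 3 and 6 h, 1 lower at 12 h and 2 lower at 24 h, which is no more than the shares of all genes just given.

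Regulators of splicing, some known to act on tropomyosin exons, moved both ways: of 15, 3 were called higher and 2 lower at 3 h, 5 and 3 at 6 h, 2 and 5 at 12 h, and 4 and 7 at 24 h. Of all genes, 31.6%, 43.3%, 35.8% and 40.7% were called in either direction. Among those of a mean log2 CPM of at least 3 the largest changes that passed were the falls of MBNL2 (−1.18 ± 0.11 at 12 h, adjusted p = 5.88e-06), RBPMS, a regulator of smooth muscle splicing (−1.02 ± 0.087 at 24 h, adjusted p = 3.04e-06), and MBNL1 (−0.58 ± 0.055 at 12 h, adjusted p = 5.78e-06), while PTBP2, the neuronal polypyrimidine tract binding protein, rose (+0.76 ± 0.088 at 6 h, adjusted p = 1.67e-05). A pair of weaker genes, named after their values were seen, changed more: MBNL3 (2.88 to 15.6 CPM) rose by +1.73 at 12 h (adjusted p = 0.000143) and +1.35 at 24 h (adjusted p = 0.0012), against the direction of MBNL1 and MBNL2, and RBFOX1 (0.276 to 3.48 CPM) fell by 1.60 at 24 h (adjusted p = 0.0339).

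Likeness of pattern was measured as Pearson's r of log2 CPM over the 16 libraries, among 10651 genes, as a description only, because the libraries share treatments and depth. The genes closest to TPM1 were PXN (r = 0.977), PHLDB2 (0.975), KIRREL1 (0.973), ERICH5 (0.973) and MBNL2 (0.972). TPM2 was closest to TOM1L2 (0.960), WNT2B, ABI2, TRIQK and GAS6 (0.950), TPM3 to BAZ1B (0.974), TMED2, LSR, MACO1 and CDK2AP1 (0.964), and TPM4 to ANXA3 (0.984), the keratins KRT8 (0.972) and KRT18 (0.965), TCEAL9 and HABP4. Among the 4 genes r was 0.923 for TPM1 and TPM4, 0.834 for TPM1 and TPM2, 0.704 for TPM2 and TPM4, and −0.821, −0.724 and −0.622 for TPM3 with TPM1, TPM2 and TPM4.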

How the data were processed

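Total polyadenylated RNA of 16 libraries was sequenced on a NextSeq 500 with a NEBNext Ultra II kit. The authors deposited, per transcript, estimated counts and TPM. The labels name Salmon 1.3.0 and hg38 for them, while the study's methods describe another alignment. A joint table by the authors was not used: its 16 per-sample columns, and its columns of fold changes, standard errors and p-values. Transcripts were matched to GENCODE release 44 (165533 of 177456 identifiers, 151923 of the same version). Unmatched reads were 2.917% to 3.167% per library.

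Estimated counts were summed per gene, rounded, filtered by group and fitted with edgeR 4.0.16 (TMM, quasi-likelihood, all 6 groups, R 4.3.3). Transcript and coding-exon shares of gene TPM (genes of at least 5 TPM, mean share of 2% to 98%) were fitted with limma 3.58.1. For transcripts this replaced edgeR's exon usage test, which called mostly unchanged transcripts on simulated counts. Calls are two-sided at adjusted p under 0.05. The named items were the 4 genes, transcripts of at least 5% in a group, tested exons, up to 4 genes per list (the largest called changes at a mean log2 CPM of at least 3) and the 5 genes most alike. DESeq2 1.42.0 and other settings served as alternatives. Members and lists were chosen with earlier results of these data known. Separate cultures are not stated, so p-values measure the spread between these libraries, which may be technical. Same-numbered libraries did not deviate together (r −0.241 to 0.116, 36 pairs), so numbers were not used as pairs.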

Additional observations from a re-analysis of the deposited data

Results flagged for a closer look

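The results below were singled out because the effect of LatB differed between 3 h and 24 h in a test of the difference. The effect at 24 h minus that at 3 h was −0.90 for TPM1, −0.64 for TPM2 and −0.43 for TPM4 on the log2 scale, and 27.9% of all genes passed the same test. The effects at 3 h and 24 h are measured against different controls, and TPM1 was 1.31-fold higher in control 24 h than in control 0 h. The part of that in the difference was not tested.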

How the results depend on the processing

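Across 556 alternative values of the 4 genes over 9 comparisons, 494 kept direction and side of the threshold, 47 lost the call, 10 gained it and 5 changed sign. TPM1 and TPM2 were lower than control at all 4 times, TPM4 at 6, 12 and 24 h, and TPM3 higher at 24 h under every alternative run. The 5 changes of sign were all of TPM2 from 6 h to 12 h (−0.03): 0.081 without scaling, 0.0243 with limma on log2(TPM + 1), 0.0242 with limma on log2(TPM + 0.1), 0.0067 without LatB 6 h replicate 1 and 0.17 without LatB 12 h replicate 1, where leaving out 1 library gave −0.29 to 0.17. The cause was not tested. Besides the cases given above, TPM4 at 3 h was called without scaling (−0.28) and against the other control (−0.36), TPM3 lost its call at 3 h without scaling (0.13) and with a length offset (0.14) and at 12 h with a length offset (0.03) or with only the compared groups (0.19), and TPM4 from 3 h to 6 h lost its call in 11 of 15 alternatives.

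The count of genes called at 12 h (5988) was 2828 with only the compared groups and 3981 with limma on log2(TPM + 0.1). Between the controls (42) it was 267 with DESeq2, 8 with RLE factors, 7 without scaling, 91 without the filter, 8 with a length offset, 218 with only the compared groups, and 2 and 7 with limma on TPM. For 6 h against 3 h (3710) it was 2029 with a length offset and 1751 and 1788 with limma. For 12 h against 6 h (4837) it was 3025, 2786 and 2782, and 1574 with only the compared groups. For 24 h against 12 h (1949) it was 974, 751 and 694, and 0 by edgeR with only the compared groups, where 2542 genes had an unadjusted p under 0.05. For 24 h minus 3 h (4664) it was 2977, 2941 and 2940.

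Transcripts called at 3, 6, 12 and 24 h and between the controls (137, 315, 80, 171 and 13) became 1248, 1709, 1117, 1972 and 190 with limma's voom and diffSplice. With edgeR's exon usage test they were 362 at 3 h, 350 at 12 h, 296 at 24 h and 179 between the controls, and with a mean of at least 50 counts 145 at 6 h, 210 at 12 h and 95 between the controls. With shares of estimated counts they were 354, 831, 286 and 793 at the 4 times. Log2 odds gave 179 at 12 h and 23 between the controls, the same annotation version 205 at 6 h, 45 at 12 h and 20 between the controls, and a gene minimum of 1 TPM 31 between the controls. With only the compared groups limma called 0 in each, with 4463, 5024, 4034, 5888 and 2195 at an unadjusted p under 0.05. Exons called (94, 368, 58, 292 and 10) became 433, 1293, 641 and 1563 at the 4 times with estimated counts. Log2 odds gave 164 and the same version 37 at 12 h, coding transcripts only gave 94 at 12 h, 149 at 24 h and 16 between the controls, and a gene minimum of 1 TPM gave 22 there. With only the compared groups limma called 0, with 5511, 6292, 5095, 7537 and 2376 at an unadjusted p under 0.05. RLE factors and no filter were not run for the transcript shares.

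Leaving out 1 library gave 4145 to 4720 genes at 3 h, 5934 to 6619 at 6 h, 4826 to 6162 at 12 h, 4034 to 6424 at 24 h, 2 to 9 between the controls, 2549 to 2995, 2861 to 6219 and 852 to 3713 for the successive times and 3013 to 4535 for 24 h minus 3 h. Transcript counts were 33 to 116, 66 to 282, 33 to 119, 20 to 116 and 5 to 36, and exon counts 17 to 63, 90 to 382, 8 to 117, 15 to 246 and 4 to 20.

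With the replicate number as a block, though the pairing check found no shared deviation, 6 genes were called between the controls and 1093 for 24 h against 12 h. The replicate block gave 58, 70, 4 and 27 transcripts at the 4 times and 6 between the controls, and 26, 162, 0 and 60 exons (at 12 h limma left 6542 exons at an unadjusted p under 0.05). Under it the share of TPM1-208 lost its call at 6 h (adjusted p = 0.0544) and 24 h (0.0713), and exon 1b at 12 h (0.117) and 24 h (0.0526). Groups of 2 or 3 libraries, and the estimate that splits reads between overlapping transcripts, whose error is not in the tests, limit the isoform results.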

Other observations

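In TPM1 the transcripts with exon 1b stood at 46.4 to 50.96 TPM at 3 h against 67.1 to 73.2 TPM in control 0 h, and at 70.4 to 88.3 TPM at 12 and 24 h. Among them TPM1-214, annotated for nonsense-mediated decay, held 0 to 18.1 TPM in control 0 h and 0 to 10.9 TPM at 3 h. At 12 and 24 h it held 21.1 to 30.6 TPM. Transcripts with exon 1a stood at 95.9 to 169 TPM at 12 and 24 h, against 320 to 384 TPM in control 0 h. The difference between the times was not tested.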
